A study of Mus musculus with 3 samples.

Results

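Of the 7245 strong PU.1 peaks of the second ChIP-seq library from induced pro-B cells, 1892 had no counterpart in the third library, and these 1892 peaks are described here. A peak was taken as strong where the authors' score in the fifth column of its list was 1700 or more, and as missing from replicate 3 where it shared not even 1 bp with any of the 6169 peaks called there. The other 5353 strong peaks overlapped a replicate 3 peak and are called shared. The complete replicate 2 list held 74494 peaks, of which 91.8% had no replicate 3 peak, against 26.1% of the strong ones. The members were chosen by replicate 2 score and by overlap with the replicate 3 list, so both are given as descriptions without a test.

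Chromatin came from i660BM, a line of C57BL/6 pro-B cells that carries an inducible PU.1 system and was grown with interleukin-7. In both PU.1 libraries the cells had received 70 ng/ml doxycycline for 24 h, and chromatin was precipitated with a polyclonal rabbit antibody against PU.1. Both libraries thus share line, strain, induction and antibody, and differ by their replicate number, 2 or 3, alone; nothing in the labels says whether they came from separate cultures. The 1 input sample, labelled as untreated, was not analysed here, nor was chromatin from uninduced cells, so binding that depends on the induction cannot be told apart from binding that does not. Peak lists carry no read counts, and the depth of either library is unknown here.

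PU.1, the product of Spi1, is an ETS-family transcription factor that binds purine-rich DNA around a GGAA core, and it is needed for both the B cell and the myeloid lineage. In B cell precursors it is known to bind enhancers and promoters of genes for the pre-B cell receptor, its signalling chain and cytokine receptors, often at closed chromatin that it helps to open. Active promoters rich in CpG are accessible in most cells and hold other ETS factors as well.

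The regulatory DNA at the start of the genes under the highest ranked missing peaks is shown first, because gene starts are where these peaks differed most from the shared ones. Missing peaks were ranked by score, with all scores of 3100 or more taken as equal, and then by width. The first 4 of them that cover a gene start in the promoter table lie at Phf12, Igll1, Hsp90b1 and Rap1b. Phf12 encodes a PHD finger protein of a histone deacetylase complex, Igll1 the λ5 chain of the surrogate light chain, Hsp90b1 a chaperone of the endoplasmic reticulum, and Rap1b a small GTPase. Each sequence holds the 250 bases before the gene start, 5′ to 3′ on the gene's strand, from RefSeq on GRCm38.p6. Capitals mark GAGGAA, a core that PU.1 prefers, and CCGGAAG, a core of other ETS factors, on either strand.
Phf12: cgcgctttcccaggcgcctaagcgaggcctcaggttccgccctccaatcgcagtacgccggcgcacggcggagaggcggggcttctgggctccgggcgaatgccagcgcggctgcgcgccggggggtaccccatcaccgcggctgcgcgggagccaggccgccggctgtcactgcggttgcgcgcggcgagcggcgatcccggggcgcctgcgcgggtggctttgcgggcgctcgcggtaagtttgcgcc
Igll1: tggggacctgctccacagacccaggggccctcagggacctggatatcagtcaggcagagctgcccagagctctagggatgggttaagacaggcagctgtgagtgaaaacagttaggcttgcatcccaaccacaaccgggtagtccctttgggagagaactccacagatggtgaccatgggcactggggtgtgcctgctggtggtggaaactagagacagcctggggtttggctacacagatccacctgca
Hsp90b1: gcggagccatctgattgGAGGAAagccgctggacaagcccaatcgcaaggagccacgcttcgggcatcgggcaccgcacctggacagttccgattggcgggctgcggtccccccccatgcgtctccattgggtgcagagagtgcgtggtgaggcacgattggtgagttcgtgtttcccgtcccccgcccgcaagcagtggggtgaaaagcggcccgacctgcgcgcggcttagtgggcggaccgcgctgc
Rap1b: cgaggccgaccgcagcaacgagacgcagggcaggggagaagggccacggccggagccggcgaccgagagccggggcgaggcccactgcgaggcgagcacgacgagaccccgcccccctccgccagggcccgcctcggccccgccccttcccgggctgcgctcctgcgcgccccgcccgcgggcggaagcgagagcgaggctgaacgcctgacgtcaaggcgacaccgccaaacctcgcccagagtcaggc
These windows lie at chr11:77982566-77982815 on the plus strand for Phf12 and, on the minus strand, at chr16:16863986-16864235 for Igll1, chr10:86705445-86705694 for Hsp90b1 and chr10:117845975-117846224 for Rap1b. Of the 4, Hsp90b1 held GAGGAA (1 match) and none held CCGGAAG. CpG dinucleotides numbered 41 at Phf12, 25 at Hsp90b1 and 36 at Rap1b, and 1 at Igll1. The GC content was 76.0%, 66.8%, 77.2% and 58.0% in the same order.

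For comparison, the shared strong peaks with the highest replicate 3 scores that cover a gene start lie at Cd53, a leukocyte tetraspanin gene, and at Noc2l, a gene of ribosome biogenesis.
Cd53: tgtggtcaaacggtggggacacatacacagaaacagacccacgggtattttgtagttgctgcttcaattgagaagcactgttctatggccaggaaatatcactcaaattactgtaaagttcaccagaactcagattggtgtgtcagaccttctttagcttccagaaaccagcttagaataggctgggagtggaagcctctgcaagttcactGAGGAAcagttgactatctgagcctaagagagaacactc
Noc2l: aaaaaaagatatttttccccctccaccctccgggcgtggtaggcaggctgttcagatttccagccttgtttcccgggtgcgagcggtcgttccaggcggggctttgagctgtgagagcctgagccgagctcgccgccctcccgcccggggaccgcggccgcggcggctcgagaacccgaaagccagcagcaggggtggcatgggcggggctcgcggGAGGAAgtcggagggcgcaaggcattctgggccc
The Cd53 window (chr3:106790150-106790399, minus strand) held 1 GAGGAA and 2 CpG, and the Noc2l window (chr4:156235765-156236014, plus strand) held 1 GAGGAA and 24 CpG. Their peaks scored 3100 in replicate 2 and 1163 and 1013 in replicate 3.

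The rank put the wider peak first among scores of 3100 or more, so by rule the highest ranked missing peaks were wide. The first lay across the start of Phf12 (chr11:77980208-77985066, 4859 bp, score 3100), 130 kb from the nearest replicate 3 peak. The second lay inside a non-coding gene 42.2 kb from Pdzd8, which encodes a lipid transfer protein of the endoplasmic reticulum (chr19:59388030-59392682, 4653 bp, score 3100). The third covered the start of Igll1 and reached to 0.521 kb from an end of Vpreb1, so that both surrogate light chain genes stood beside it (chr16:16863501-16867880, 4380 bp, score 3226). The nearest replicate 3 peak was 14.0 kb away from it.

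The next peaks lay inside Tbc1d16, a regulator of Rab GTPases (4287 bp), and 3.02 kb from Il10ra, the interleukin-10 receptor gene (4005 bp). A peak across an end of Ttc41 also covered the start of Hsp90b1 (3662 bp, score 3130). Peaks at an end of Osgin1, of Arf6, a small GTPase of membrane traffic, and of Rap1b measured 3619, 3577 and 3569 bp. The tenth, 33.8 kb from Eri1, an exonuclease gene, measured 3566 bp.

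Replicate 2 scores of the missing peaks ran from 1700 to 3226, with a median of 2013 and quartiles of 1837 and 2332. Shared peaks ran from 1701 to 3233, with a median of 3043 and quartiles of 2364 and 3100. The missing peaks therefore crowded toward the threshold. Among peaks scored from 1700 to below 2000, 916 of 1480 were missing (61.9%, exact 95% interval 59.4 to 64.4). The share was 38.4% (36.1 to 40.7) from 2000 to below 2500 and 17.0% (15.0 to 19.0) from 2500 to below 3100. At exactly 3100, a value that 2431 strong peaks carried, it was 2.47% (60 peaks), and above 3100 it was 8.00% (18 of 225). These intervals, like all below, cover counting error only.

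**Figure D1:**
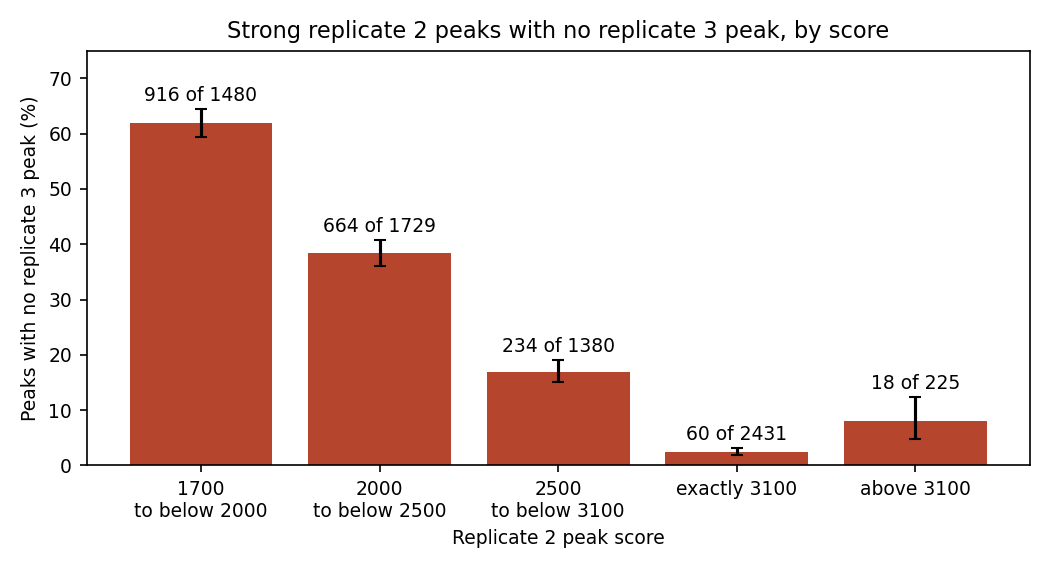
Share of strong replicate 2 peaks with no replicate 3 peak (vertical axis, %) in 5 ranges of replicate 2 score (horizontal axis); bars give the share, error bars the exact 95% interval, and labels the number of peaks. The share was 61.9% in the lowest range and 2.47% at a score of exactly 3100.

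At the threshold the values were continuous. The 3 lowest members scored 1700.22 inside Sdccag8, 1700.52 across an end of Mplkip and 1700.95 near Atp5o, a gene of the mitochondrial ATP synthase. The 3 peaks without a replicate 3 peak just below it scored 1699.37, 1698.03 and 1698.01, nearest to Adgrf1, Hyal2 and Cog6. Below the threshold, 786 replicate 2 peaks had a replicate 3 peak, the lowest with a score of 103.

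Few missing peaks lay within 5 kb of a replicate 3 peak, and the distances were not set against those of other positions. The distance had a median of 59.6 kb, with quartiles of 19.0 and 162 kb. It was at most 1 kb for 50 peaks (2.64%) and at most 5 kb for 192 (10.1%), while 693 (36.6%) lay more than 100 kb away and 42 more than 1 Mb away. The 3 farthest were a pair inside Tspan14, a tetraspanin gene (3827 and 3823 kb), and a peak inside Ncam2, a neural adhesion gene (3236 kb). In the authors' merged interval list, 1891 of the 1892 missing peaks were kept, and 4 of them stood in an interval that also held a replicate 3 peak.

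Missing peaks were wider than shared peaks in the same range of score. The score does not rank the 2431 strong peaks at exactly 3100 among themselves. Width comes from the same peak call as the score, so it is described without a test. Over all strong peaks the median width was 1391 bp for missing peaks (95% interval of the median 1360 to 1432) and 1267 bp for shared ones (1254 to 1278). From 1700 to below 2000 the medians were 1252 and 1164.5 bp, from 2500 to below 3100 they were 1722.5 and 1215 bp, and at exactly 3100 they were 2336.5 bp for missing peaks and 1380 bp for shared ones. With a threshold of 1000 the overall order turned, to 1206 bp for missing peaks and 1241 bp for shared peaks. The widest members lay inside Poli, a DNA polymerase gene (5018 bp, score 1741), at Phf12 (4859 bp) and inside Tnrc18 (4671 bp, score 2786). The narrowest lay inside Gpr158, Gipc2 and Naaladl2, with 674, 733 and 751 bp.

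**Figure D2:**
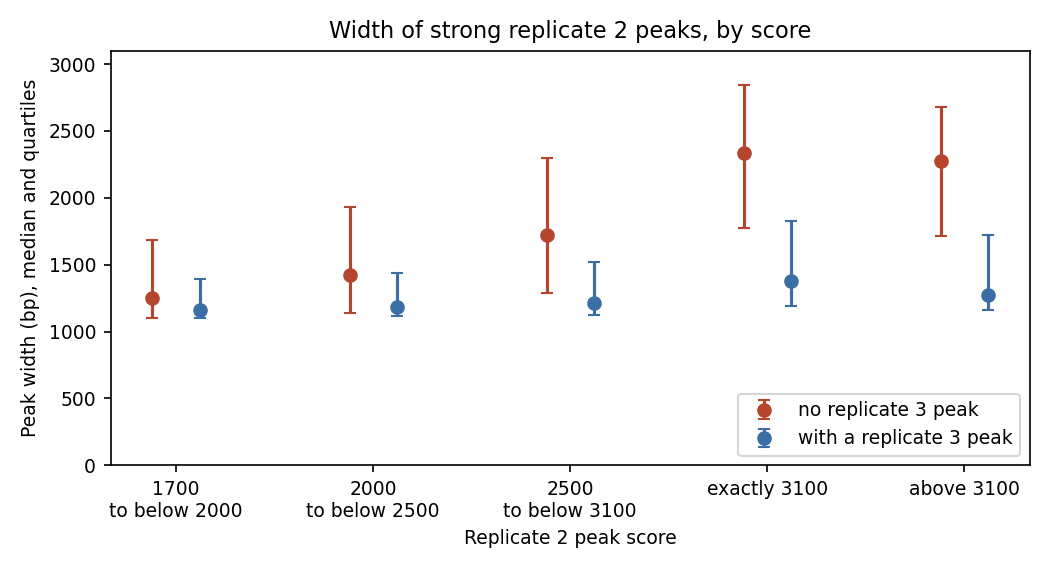
Peak width in bp (vertical axis) of strong replicate 2 peaks in 5 ranges of replicate 2 score (horizontal axis), without a replicate 3 peak (red, left) and with one (blue, right); points are medians and bars span the quartiles. The medians were 1252 and 1164.5 bp in the lowest range and 2336.5 and 1380 bp at a score of exactly 3100.

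Among strong peaks scored below 3100, 39.5% were missing. In that range, 299 of 493 peaks from 2000 to below 3000 bp were missing (60.6%, 56.2 to 65.0). Of those with 3000 bp or more, 60 of 71 were missing (84.5%, 74.0 to 92.0). There the share was lowest in the bin that begins at 1000 bp, with 29.9% (648 of 2164). Peaks under 1000 bp stood higher again, at 46.6% (111 of 238). Over all strong peaks, 36.7% were missing from 2000 to below 3000 bp and 42.6% from 3000 bp, against 26.1% at any width.

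Missing peaks lay at the ends of protein-coding genes more often than shared ones. A centre within 1 kb of a gene end was found for 385 of 1892 missing peaks (20.3%, 18.6 to 22.2) and for 618 of 5353 shared peaks (11.5%, 10.7 to 12.4). The odds ratio was 1.96 (1.70 to 2.26; two-sided Fisher exact test, adjusted exact p = 1.37e-19 over 4 location classes). Intergenic sequence held 598 missing peaks (31.6%) and 2083 shared ones (38.9%), with an odds ratio of 0.726 (0.648 to 0.812; adjusted exact p = 2.65e-08). Inside protein-coding genes the shares were 40.1% and 40.4% (odds ratio 0.986, 0.884 to 1.10; adjusted exact p = 0.806), and inside other genes 7.98% and 9.14% (0.863, 0.708 to 1.05; adjusted exact p = 0.176). Peaks of one library are the units of these tests and not independent replicates, and an excess at gene ends among the highest scores was known from an earlier look at these data.

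**Figure D3:**
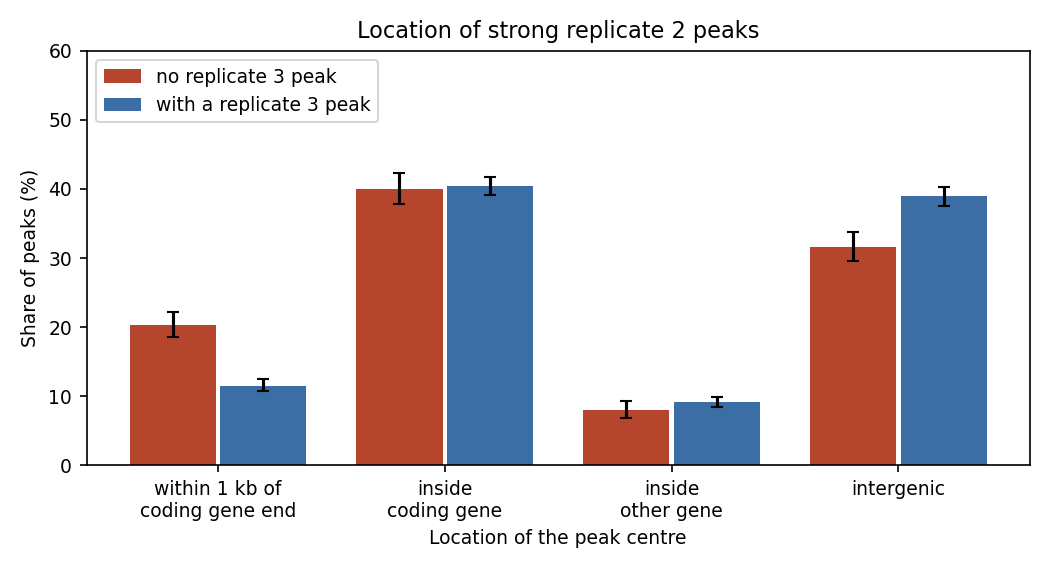
Share of strong replicate 2 peaks (vertical axis, %) by location of the peak centre (horizontal axis), for 1892 peaks without a replicate 3 peak (red, left) and 5353 with one (blue, right), with exact 95% intervals. Gene ends held 20.3% and 11.5%, and intergenic sequence 31.6% and 38.9%.

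Because missing peaks scored lower and were wider, the gene end comparison was repeated within bins of each measure. The pooled Mantel-Haenszel odds ratio was 2.32 (1.96 to 2.76) within 8 bins of score, 1.72 (1.49 to 1.99) within 10 bins of width, and 1.70 (1.42 to 2.04) within bins of both together, the last added after the data were seen. Among peaks scored 3100 or more the gene end odds ratio was 4.16 (2.49 to 6.83), and the intergenic one 0.424 (0.227 to 0.748). At exactly 3100, 25 of 60 missing peaks lay at a gene end (41.7%), against 288 of 2371 shared ones (12.1%). Above 3100 the counts were 4 of 18 (22.2%, 6.41 to 47.6) and 33 of 207 (15.9%, 11.2 to 21.7), with overlapping intervals. For scores of 3100 or more the comparison was not repeated within bins of width.

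Turned round, 38.4% of the 1003 strong peaks at gene ends were missing from replicate 3 (35.4 to 41.5), 25.9% of the 2921 inside protein-coding genes, 23.6% of the 640 inside other genes and 22.3% of the 2681 intergenic ones. Missing peaks at gene ends were also the widest of the 4 classes, with a median of 1853 bp (1750 to 1911), against 1541.5 bp (1472 to 1654) for shared peaks there. Between genes the medians were 1267 and 1252 bp, and their intervals overlapped. The shared strong peaks at gene ends had a median replicate 3 score of 134 (127.5 to 141), against 158 (152 to 164) for the shared intergenic ones, although their median replicate 2 scores were 3100 and 3005.

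Gene starts, rather than far ends, carried the difference in counts. The RefSeq promoter table gives starts for 17492 of 21887 protein-coding genes, with none used on chromosome 18, which leaves 1820 missing and 5176 shared peaks. Of these, 338 missing peaks (18.6%, 16.8 to 20.4) and 505 shared peaks (9.76%, 8.96 to 10.6) were centred within 1 kb of a start. The far ends of genes, away from any start, held 21 missing (1.15%) and 64 shared peaks (1.24%), with overlapping intervals. Where starts of 2 or more genes lay within 1 kb of the centre, as at divergent promoters, 44 of 93 strong peaks were missing (47.3%, 36.9 to 57.9). That interval includes the share for all strong peaks centred within 1 kb of a start, 338 of 843 (40.1%, 36.8 to 43.5).

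**Figure D4:**
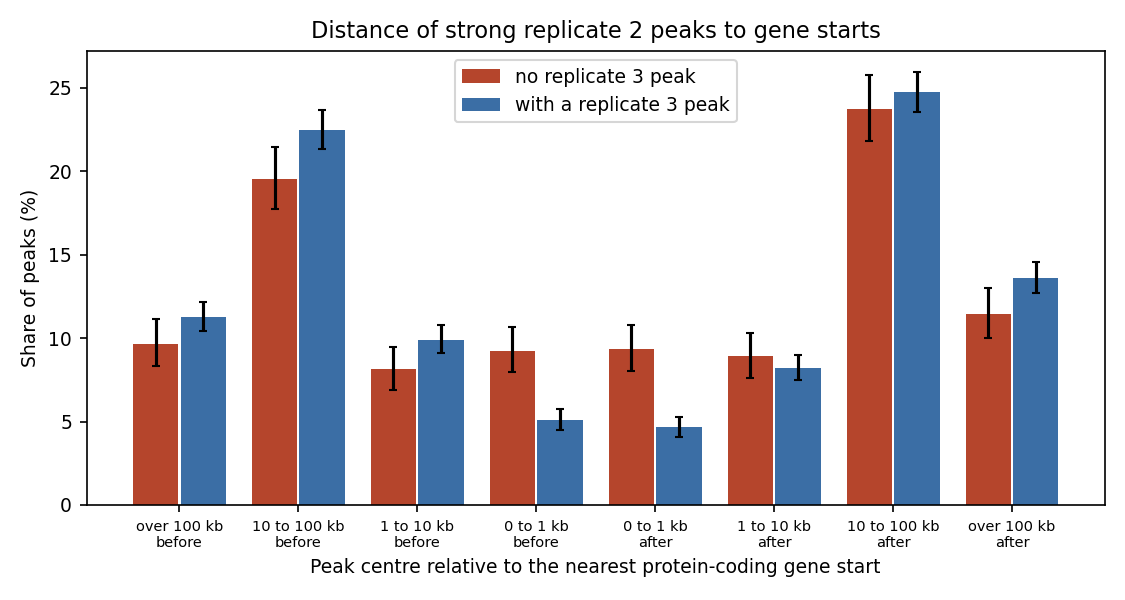
Share of strong replicate 2 peaks (vertical axis, %) by distance of the centre to the nearest protein-coding gene start, before or after it on the gene's strand (horizontal axis), for peaks without a replicate 3 peak (red, left) and with one (blue, right), with exact 95% intervals. In the 1 kb before and after the start the shares were 9.23% and 9.34% for missing peaks and 5.10% and 4.66% for shared peaks.

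Base composition was read in the 250 bases before each start, 1 window per gene. In the 387 promoters under missing peaks the median number of CpG was 18 (quartiles 11 and 24), against 16 (8 and 21) in the 531 promoters under shared strong peaks, 17 in 5280 promoters under weaker replicate 2 peaks and 5 in 11294 promoters without a replicate 2 peak. A window with at least 50% GC and a CpG ratio, observed over expected, of at least 0.6 was counted as CpG-rich. That held for 70.3% of promoters under missing peaks (65.5 to 74.8), 61.0% under shared peaks (56.7 to 65.2), 68.2% under weaker peaks, 27.6% without a peak and 41.8% of all 17492. In CpG content, promoters under missing peaks were thus close to those under weaker peaks.

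Motif matches on either strand are a description of these windows, not of binding. GAGGAA occurred in 124 of 387 promoters under missing peaks (32.0%, 27.4 to 36.9) and 200 of 531 under shared peaks (37.7%, 33.5 to 41.9), against 24.0% under weaker peaks, 20.1% without a peak and 22.1% of all. CCGGAAG occurred in 19.1% (15.3 to 23.4) and 16.6% (13.5 to 20.0) of promoters under missing and shared strong peaks, against 18.8% under weaker peaks, 4.29% without a peak and 9.38% of all. A given GGAA belongs to only 1 of these motifs. GGGCGG, the GC box, occurred in 62.8% (57.8 to 67.6) and 55.0% (50.6 to 59.3), against 60.6% under weaker peaks, 33.2% without a peak and 42.8% of all. For both motifs, promoters under missing peaks and under weaker peaks had nearly the same share. CCAAT stood at 36.2% and 35.0%, against 37.3% under weaker peaks, 35.7% without a peak and 36.2% of all. TATAAA stood at 5.17% and 7.16%, against 5.74% under weaker peaks, 15.7% without a peak and 12.2% of all. TGACGTCA stood at 2.33% and 3.77%, against 2.97% under weaker peaks, 1.30% without a peak and 1.90% of all. For each of the 6 motifs the intervals of missing and shared strong peaks overlapped, and no test was made.

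Near genes, 912 protein-coding genes had a missing peak within 5 kb of an end. For 788 of them no shared strong peak lay in that window, and 124 had both kinds, while 1676 genes had shared strong peaks alone. Of all 2186 strong peaks within 5 kb of a gene end, 688 were missing, or 31.5%, and the lists below are read against that share. All 23 lists had exact 95% intervals that include it, so none is set apart by its own count. Of the lists, 7 lay above that share and 16 below it. A peak given below as at a listed gene lies within 5 kb of its end, and can lie nearer to or inside another gene.

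The pre-B cell receptor and recombination list had 4 of 6 strong peaks missing (66.7%, 22.3 to 95.7). One of them is the wide peak at Igll1 and Vpreb1, which code for the λ5 and VpreB parts of the surrogate light chain. Vpreb3, a related gene that was added to the named ones after its values were seen, had a peak across one of its ends (chr10:75947723-75951432, 3710 bp, score 1758), 53.9 kb from replicate 3. Cd79a, a signalling chain of the B cell receptor, had a missing peak of 4093 bp (chr7:24901538-24905630, score 2157), 3.63 kb from a replicate 3 peak, and a shared peak scored 3100 besides. Cd79b, the partner chain, had one 4.80 kb from its end (chr11:106305418-106306545, 1128 bp, score 2051), and the other 5 replicate 2 peaks there scored 1481 or less and had no replicate 3 peak either.

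In B cell receptor signalling, 5 of 30 strong peaks were missing (16.7%, 5.64 to 34.7). Besides the Cd79 genes these belonged to Cd72, an inhibitory co-receptor (chr4:43452246-43455489, 3244 bp, score 3025), to Lyn, a Src-family kinase (chr4:3677606-3680299, 2694 bp, score 2840), and to Pik3r1, a regulatory subunit of PI3-kinase (2263 bp, score 2060). Lyn also had a shared peak scored 3100. The majority of genes in this list with a strong peak, 16 of 21, had shared ones only.

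Among B-lineage transcription factors 3 of 15 strong peaks were missing (20.0%, 4.33 to 48.1). They lay at Bcl6, a repressor of the germinal centre (3477 bp, score 2449), Etv6, an ETS-family repressor (2600 bp, score 2241), and Ikzf1, which encodes Ikaros (2252 bp, score 2079). None of these 3 genes had a shared strong peak within 5 kb of its ends. In the interleukin-7 and JAK-STAT list 1 of 9 was missing, at Ccnd3, the gene of cyclin D3 (1204 bp, score 1819), which also had a shared peak.

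Antigen presentation and innate genes were mixed. In the MHC class II list 2 of 6 strong peaks were missing, at H2-DMb1, a chain of the peptide loading factor (score 2241), and H2-Oa, a chain of its inhibitor (score 1837). In the TLR and NF-kB list 4 of 14 were missing, all at Nfkbie, an NF-kB inhibitor (best score 2602), or Tlr9, the receptor for CpG DNA (2492). Tlr9 also had a shared peak scored 3100. In the myeloid list 6 of 21 were missing (28.6%, 11.3 to 52.2). Ncf4 (2296) and Ncf1 (1982), subunits of the phagocyte oxidase, and Tyrobp (2118), an ITAM adaptor, had shared peaks scored 3100 as well, and their missing peaks lay 1.51 to 2.42 kb from a replicate 3 peak. Csf2ra, a chain of the GM-CSF receptor (2032), and the integrin gene Itgam (1903) had missing peaks and no shared strong peak.

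Lists of general cell functions held several of the larger shares. Chromatin regulators had 7 of 13 strong peaks missing (53.8%, 25.1 to 80.8), among them Chd1, a remodeller (2487), Eed, a Polycomb subunit (2365), Arid1a, a SWI/SNF subunit (2352), and Crebbp, an acetyltransferase (2039). Ribosomal protein genes had 8 of 16 (50.0%, 24.7 to 75.3), among them Rpl41 (2567), Rps26 (2260) and Rps15a (1990). Splicing and hnRNP genes had 7 of 15 (46.7%, 21.3 to 73.4), led by Hnrnpul2 (3100), U2af2 (2750), Hnrnpll (2446) and Snrpa (2358). U2af2 and Snrpa also had shared strong peaks, with replicate 2 scores of 2179 and 3183. The missing peak at Snrpa lay 1.065 kb from a replicate 3 peak. The DNA replication and cell cycle list had 9 of 21 (42.9%, 21.8 to 66.0), led by Cdk19 (2334), the replication clamp gene Pcna (2114), Cdc5l (2076) and Cdc37 (1939). A place on this list, as for Cdk19, Cdc5l and Cdc37, does not by itself show a role in replication or the cell cycle. All values in parentheses after gene names are replicate 2 scores.

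Zinc finger Zfp genes, many of them clustered, had 21 of 51 missing (41.2%, 27.6 to 55.8). Missing peaks at Zfp263 and Zfp384 scored 3100, at Zfp157 2871 and at Zfp78 2774. Proteasome subunits had 2 of 7, at Psma5 (3100) and Psmd13 (2045), and respiratory chain subunits 2 of 9, at Sdhb (2359) and Atp5o (1701). Translation factors had 2 of 9, at Eif2a (2074) and Eif4ebp3 (1935), and mitochondrial ribosomal proteins 2 of 10, at Mrpl39 (2041) and Mrpl18 (1878). With a window of 1 kb the counts were 2 of 4, 0 of 4, 0 of 3 and 1 of 7 in the same order. Olfactory receptors had 4 of 17, among them Olfr175 (2279), and 0 of 4 with a window of 1 kb. No strong peak was missing near T cell genes (0 of 6, up to 45.9%), erythroid genes (0 of 4, up to 60.2%), histone genes (0 of 3), or the single strong peaks of aminoacyl-tRNA synthetase, liver and neuron genes.

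**Figure D5:**
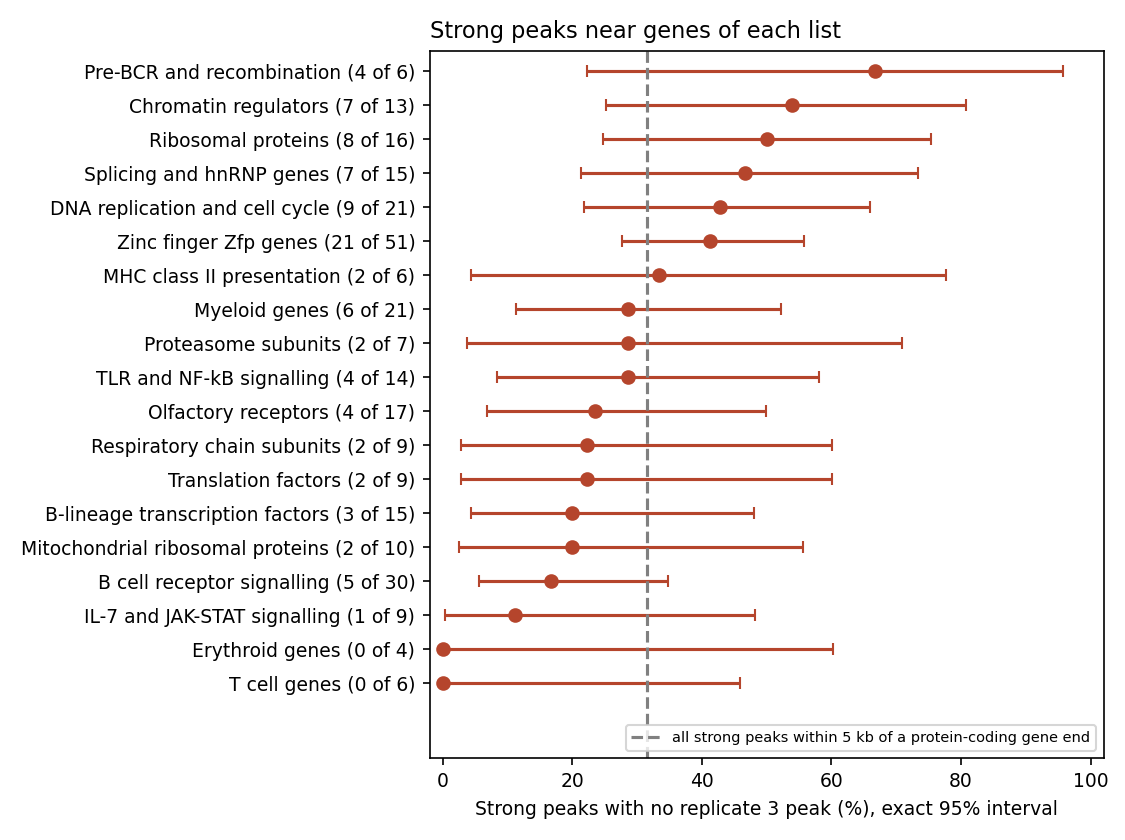
Share of strong replicate 2 peaks near each gene list that have no replicate 3 peak (horizontal axis, %), for the 19 lists with at least 4 strong peaks within 5 kb of a member's end (vertical axis, with missing and total counts); bars are exact 95% intervals and the dashed line is the 31.5% of all strong peaks near protein-coding genes. Pre-BCR genes stood highest with 4 of 6, T cell and erythroid genes lowest with 0, and every interval crosses the line.

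The lists were also taken as 2 groups, a split made after the values were seen. The 10 lists of general cell functions had 39 of 103 strong peaks missing (37.9%, 28.5 to 48.0). The 8 lymphoid and myeloid lists had 23 of 104 (22.1%, 14.6 to 31.3), and all strong peaks near gene ends 31.5%. Of the general lists, only chromatin regulators, ribosomal proteins, splicing and cell cycle genes lay above 31.5%. Of the lymphoid and myeloid lists, pre-B cell receptor and MHC class II genes lay above it. Peaks at gene ends were also counted, taking those near a listed gene and centred within 1 kb of an end of any protein-coding gene. Some lay at the end of another gene, as did the missing peak 3.67 kb from Arid1a. The counts were 26 of 63 (41.3%, 29.0 to 54.4) for the general lists and 10 of 57 (17.5%, 8.75 to 29.9) for the lymphoid and myeloid ones. Of all strong peaks at gene ends, 38.4% were missing. The general lists also had lower scores, with medians of 2446 and 2985 over all their strong peaks, and the part of score in this difference was not tested. With scores below 3100 the gene end counts were 24 of 39 (61.5%, 44.6 to 76.6) and 10 of 24 (41.7%, 22.1 to 63.4), with overlapping intervals, against 54.5% of all gene end peaks in that range.

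Of the PU.1-related genes always reported, Itgam and Cd79b had a missing strong peak. Spi1, Spib, Btk, Syk and Il7r each had a strong peak that was shared, with replicate 2 scores of 2599, 2413, 2762, 2272 and 3100, beside replicate 3 scores of 74.2, 107, 108, 94.9 and 95.5. Their replicate 3 scores lay between the lowest value of that list, 70.0, and the median of the shared strong peaks, 151. Cd22, Rag1 and Csf1r had no strong peak within 5 kb of an end, and their best replicate 2 peaks scored 305, 1035 and 1004.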

How the data were processed

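The authors deposited 1 peak list for each of the 2 PU.1 libraries and 1 merged interval list. The submitters' processing notes name Trim Galore, Bowtie, MACS 1.4.1 and mm10, with no settings. The deposited score in column 5 was read as that version's peak score, a multiple of −log10 p, which no header states. It carries no normalization between libraries and was used to filter and rank peaks within its own list. The merged list holds a score of 0 throughout and gave positions only. No source says whether the input served as control, and read depth is unknown.

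Coordinates are 1-based on mm10 (GRCm38). Genes came from a RefSeq table of GRCm38.p6 and starts and promoter sequences from a RefSeq promoter table of the same build, which does not cover every gene. Each peak centre received the first class that applied: gene end (a protein-coding start or far end at most 1 kb away), inside a coding gene, inside any other gene, or intergenic. Location was compared with two-sided Fisher exact tests and Benjamini-Hochberg adjustment over 4 classes, and with Mantel-Haenszel odds ratios within bins. Shares carry exact Clopper-Pearson 95% intervals. Of 2470 gene list entries 2469 matched the gene table; the 23 lists were described by counts, with no test.

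The peaks, lists and comparisons were chosen with earlier results of these data known. Named are the 10 highest ranked missing peaks, the 3 widest, narrowest and farthest, 3 on each side of the threshold, up to 4 genes per list and 10 fixed genes; 1 gene that this rule names is not reported here, and Vpreb3 was added after its values were seen. Overlap and location steps were tested on simulated data. Python 3.11.15, scipy 1.17.1 and statsmodels 0.14.6 were used.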

Additional observations from a re-analysis of the deposited data

How the results depend on the processing

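The excess of missing peaks at gene ends kept its direction and passed the threshold under all 14 alternatives, with odds ratios from 1.52 (gene end window of 5 kb) to 4.16 (scores of at least 3100) and adjusted p from 1.3e-36 to 1.82e-07. The intergenic deficit did so as well, from 0.424 to 0.822. Of the alternatives, 50% reciprocal overlap depends on peak width by construction, because 50% of both peaks must be shared. Its gene end odds ratio of 2.41 is therefore not independent of width. The odds ratio inside protein-coding genes crossed 1 with scores from 1700 to below 3100 (1.02), a gene end window of 500 bp (1.05), bins of width (1.02) and bins of score and width (1.03), and passed the threshold with scores of at least 3100 (0.506) and with 50% reciprocal overlap (0.891). Inside other genes it was 0.863 and, with scores of at least 3100, turned direction and passed the threshold (1.98, with an interval of 0.988 to 3.70 that includes 1; Fisher exact test, adjusted exact p = 0.0449). The cause was not tested.

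The share of strong peaks missing was 53.7%, 7.73% and 2.94% with scores of at least 1000, 2500 and 3100, 39.5% from 1700 to below 3100, 34.5% with 50% reciprocal overlap and 42.5% when replicate 3 peaks needed a score of 100. Near listed genes it was 31.5% and, in the same order, 59.8%, 8.11%, 4.39%, 50.9%, 41.8% and 48.7%. The difference in median width, missing minus shared, was 124 bp and, in the same order, -35, 538, 951, 181, 459.5 and 46.5 bp. With 50% reciprocal overlap the rule itself uses the widths, so 459.5 bp is not an independent check. Of the values for single lists under the alternatives, 179 stayed inside that list's interval and 47 left it.

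No paired analysis was possible because both PU.1 libraries belong to 1 group, and leaving either out removes the comparison. Which strong peaks count as missing depends on the short replicate 3 list, whose depth is unknown; a missing peak was not called there and is not shown to be unbound.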

Other observations

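Strong peaks over the end of a gene that the gene table does not label protein-coding were counted by gene type. V segments are among these types. Of all strong peaks, 26.1% were missing. For lncRNA genes 97 of 329 were missing (29.5%, exact 95% interval 24.6 to 34.7), and 111 of these 329 peaks also lay at a protein-coding gene end. For pseudogenes 15 of 61 were missing (24.6%, 14.5 to 37.3). The other types had few peaks and wide intervals, each of which includes 26.1%. For miRNA genes 5 of 16 were missing (31.2%, 11.0 to 58.7), for V segments 3 of 16 (18.8%, 4.05 to 45.6) and for snoRNA genes 4 of 11 (36.4%, 10.9 to 69.2). For snRNA genes 4 of 7 were missing (57.1%, 18.4 to 90.1) and for tRNA genes 3 of 7 (42.9%, 9.90 to 81.6).

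Missing peaks were spread over the chromosomes. The share ran from 21.2% on chromosome 12 (58 of 273, 16.5 to 26.6) to 30.0% on chromosome 13 (89 of 297, 24.8 to 35.5), with 27.1% on chromosome X (26 of 96), and the 3 strong peaks on chromosome Y were shared.

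Another replicate 2 peak was centred within 10 kb for 71.2% of missing peaks (69.1 to 73.3) and 68.3% of shared ones (67.0 to 69.5), and the median number within 50 kb was 6 for both.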
